A study of Mus musculus with 9 samples.

Results

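The genes described here are 42 cell cycle genes, 17 of DNA replication and 25 of mitosis, listed by symbol. Each gene was read from the transcript cluster, the array's probe set for 1 gene, that the platform annotation assigns to that symbol alone, and the brightest such cluster was taken where there were several. In this way 40 of the 42 genes were measured, 16 of replication and 24 of mitosis, among 22180 genes in all. Ccnb1 and Ccne2 had no cluster with a single symbol and are not analysed here.

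The 9 arrays measured RNA from mouse Peyer's patches, lymphoid organs in the wall of the small intestine. Cells enriched for the integrin CD11c were sorted by flow cytometry into 3 populations of 3 arrays each: LysoMac (lysozyme-expressing macrophages), C5aR+ LysoDC and C5aR- LysoDC (lysozyme-expressing dendritic cells with and without C5aR, which binds complement C5a, at the surface). The populations share tissue, enrichment and RNA preparation, and no treatment separates them. Strain, age, genotype, the gates, and the number of mice behind each array were not stated in what was used here. Whether a population's arrays were made from separate mice is likewise unstated, and the p-values therefore measure only how these arrays vary, which may be technical. The titles set the groups, because for C5aR- LysoDC arrays 2 and 3 the source label names a different receptor.

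Levels are log2 units, so 1 unit is a doubling, and differences between populations are taken within a gene. Genes are called bright or dim by their deposited level, and signals summed over genes are weighted toward the brightest. C5ar1, which encodes the sorted receptor, read 4.62, 4.19 and 4.99 (LysoMac), 4.92, 4.09 and 5.04 (C5aR+ LysoDC) and 3.04, 2.72 and 3.27 (C5aR- LysoDC), with no overlap between the last population and the others. Of 9 measured macrophage markers, 5 were lower in C5aR- LysoDC than in LysoMac and none was higher at an adjusted p below 0.05, and of 9 conventional dendritic cell markers, 6 were higher and none lower, where 0.405% of all clusters were lower and 1.13% higher. The macrophage markers Adgre1 and Fcgr1 went the other way. Their means were 5.87 and 4.64 (LysoMac), 7.63 and 7.94 (C5aR+ LysoDC) and 6.47 and 6.46 (C5aR- LysoDC). Of the dendritic cell markers, Dpp4 did so (-0.30). The median deviation of the 9 macrophage markers from the 9-array mean ran from 0.17 to 0.59 (LysoMac), 0.17 to 0.37 (C5aR+ LysoDC) and -0.69 to -0.50 (C5aR- LysoDC). In LysoMac, the dendritic cell marker Flt3 (3.85, 3.52 and 3.49) lay near the array medians, which ran from 3.39 to 3.65, and Itgae (4.18, 3.69 and 3.90) above them. Others of the 9 dendritic cell markers were brighter. The linear signal (the log2 level turned back) summed over the 9 was 742, 660 and 1131 (LysoMac), 1071, 1022 and 908 (C5aR+ LysoDC) and 1920, 3055 and 2009 (C5aR- LysoDC). The LysoMac arrays stood farthest apart: the mean variance over clusters was 0.179 for LysoMac, 0.0958 for C5aR+ LysoDC and 0.0854 for C5aR- LysoDC. LysoMac array 2 had the narrowest interquartile range (2.16, against 2.48 to 2.68 in the other 8 arrays). LysoMac array 3 had a higher mean correlation with arrays of the other populations (0.968) than with those of its own (0.954).

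Before a cell divides it licenses replication origins by loading the MCM helicase, copies its DNA in S phase, and then condenses and separates the copies on the mitotic spindle. Replication genes are classically switched on at the entry to S phase through E2F sites in their promoters, and mitosis genes later, through the cell cycle homology region (CHR element), often together with a CCAAT box bound by NF-Y. Tissue macrophages and differentiated dendritic cells are mostly not dividing, and dendritic cells in tissue are continually replaced from precursors, some of which still divide. In these bulk samples, fewer cells of a type and less RNA per cell cannot be told apart.

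The motifs named above were looked for in the promoters of both phases. RefSeq promoter windows (build GRCm38.p6, 250 bases before to 50 after the annotated start) were found for 34 of the 40 genes and searched on both strands for an E2F site (the letters TTCCCGC, the letters TTGGCGC or the letters TTCGCGC, of which the last 2 can overlap on opposite strands), the CHR element (the letters TTTGAA or the palindrome TTTAAA) and the CCAAT box. An E2F match was present in 7 of 14 replication promoters (50%) and 3 of 20 mitosis promoters (15%), against 8.21% of all 27025 promoters. A CHR match was present in 5 of 14 replication promoters (35.7%) and 18 of 20 mitosis promoters (90.0%), against 27.8% of all promoters. A CCAAT match was present in 10 of 14 (71.4%) and 16 of 20 (80.0%), against 37.9%, and CHR and CCAAT matches stood together in 4 of 14 (28.6%) and 15 of 20 (75.0%), against 10.9%. A match is a string of letters and not a measured binding site. The 250 bases before the start are shown for a pair of replication genes and a pair of mitosis genes that rose in C5aR- LysoDC, 5′ to 3′ on the gene's strand, with matches in capitals; positions are counted back from the start, at which the base just before it is -1.
Cdc6 (chr11:98907901-98908150, plus strand): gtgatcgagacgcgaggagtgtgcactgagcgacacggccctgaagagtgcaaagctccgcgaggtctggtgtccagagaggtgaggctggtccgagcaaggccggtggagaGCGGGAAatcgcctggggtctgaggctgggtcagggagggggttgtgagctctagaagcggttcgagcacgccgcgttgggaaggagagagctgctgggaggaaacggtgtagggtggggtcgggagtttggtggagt
Mcm6 (chr1:128359706-128359955, minus strand): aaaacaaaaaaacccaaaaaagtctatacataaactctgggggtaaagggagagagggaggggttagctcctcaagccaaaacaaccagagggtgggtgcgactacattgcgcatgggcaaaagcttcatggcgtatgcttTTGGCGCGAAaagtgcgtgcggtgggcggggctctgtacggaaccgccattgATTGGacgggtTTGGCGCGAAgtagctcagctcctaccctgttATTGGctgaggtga
Kif11 (chr19:37376132-37376381, plus strand): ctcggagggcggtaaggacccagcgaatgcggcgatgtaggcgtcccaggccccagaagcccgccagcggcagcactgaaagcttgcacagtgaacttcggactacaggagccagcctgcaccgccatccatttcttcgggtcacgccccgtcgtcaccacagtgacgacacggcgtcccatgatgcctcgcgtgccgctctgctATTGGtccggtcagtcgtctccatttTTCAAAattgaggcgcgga
Top2a (chr11:99024190-99024439, minus strand): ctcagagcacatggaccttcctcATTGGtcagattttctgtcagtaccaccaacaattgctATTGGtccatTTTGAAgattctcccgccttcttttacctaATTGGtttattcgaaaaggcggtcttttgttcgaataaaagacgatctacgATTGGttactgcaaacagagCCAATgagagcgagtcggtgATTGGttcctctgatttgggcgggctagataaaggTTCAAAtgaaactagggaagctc

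The capitals in Cdc6 are 1 E2F match on the other strand at -138 to -132. In Mcm6 each of the runs of 10 capitals holds 2 overlapping E2F matches, 1 on each strand, and the shorter capitals are 2 CCAAT boxes at -57 to -53 and -14 to -10. Kif11 has a CCAAT box at -45 to -41 and a CHR match at -19 to -14, both on the other strand. Top2a has 6 CCAAT boxes and 2 CHR matches, the nearer CHR match at -23 to -18. Of the other genes that rose, Rrm1 holds an E2F match at -67 to -61 and 2 CCAAT boxes, and Kif23 holds a CCAAT box at -7 to -3 with a CHR match just after the start, while none of these letter strings was found in the Nusap1 window.

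In C5aR- LysoDC 7 of the 40 genes rose over LysoMac and 0 fell, at an adjusted p below 0.05 (limma, Benjamini-Hochberg over all 33793 clusters): Cdc6, Mcm6 and Rrm1 of replication, and Kif11, Kif23, Nusap1 and Top2a of mitosis. Over all clusters 1.13% rose and 0.405% fell. At an unadjusted p under 0.05, 29 of the 40 were higher and 0 lower, where 7.26% and 5.89% of all clusters were, and 26 of the 40 had every C5aR- LysoDC array above every LysoMac array, where 7.28% of all clusters did, and in 0 was the order the opposite (6.88% of all clusters). The median difference was 0.92 over the 40 genes, 1.14 over replication and 0.87 over mitosis, against -0.04 over all genes, and 36 of the 40 differences were above 0. The number that passed depended on single arrays: it was 2 without LysoMac array 1, 3 without LysoMac array 2, 12 without LysoMac array 3, 4 without C5aR+ LysoDC array 2, 2 without C5aR- LysoDC array 2 and 3 without C5aR- LysoDC array 3. With 1 weight per population, which lets the LysoMac arrays vary more, 3 passed: Cdc6, Kif23 and Nusap1.

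In C5aR+ LysoDC no cell cycle gene passed the test against either other population. Against LysoMac, 0 of the 40 genes passed in limma (0.0503% of all clusters rose), 5 were higher and 0 lower at an unadjusted p under 0.05 (3.54% and 2.65% of all clusters), and 6 had every C5aR+ LysoDC array higher (4.03% of all clusters) and 0 lower (3.86%). The median difference of C5aR+ LysoDC from LysoMac was 0.28, with 0.47 over replication and 0.17 over mitosis, against -0.02 over all genes; without LysoMac array 2 the replication median was 0.24, and without LysoMac array 3 the mitosis median was 0.35. Between the dendritic cell populations, 0 of the 40 passed in limma (0.0947% of all clusters were lower in C5aR+ LysoDC and 0.00592% higher), and 21 were lower and 0 higher in C5aR+ LysoDC at an unadjusted p under 0.05 (3.1% and 2.36% of all clusters). In 20 of the 40 genes every C5aR+ LysoDC array was below every C5aR- LysoDC array (5.13% of all clusters), and E2f1 was the 1 gene with the opposite order (5.12% of all clusters). The median difference of C5aR+ from C5aR- LysoDC was -0.73, with -0.83 over replication and -0.65 over mitosis, against 0.01 over all genes. Each pair of these comparisons shares 3 arrays. The moderated F test over the 3 populations called Cdc6, Kif23 and Nusap1, 3 of the 40, where it called 0.755% of all clusters. It called 0 without LysoMac array 1, C5aR+ LysoDC array 2, C5aR- LysoDC array 2 or C5aR- LysoDC array 3, each left out alone, and 7 without LysoMac array 3.

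**Figure D1:**
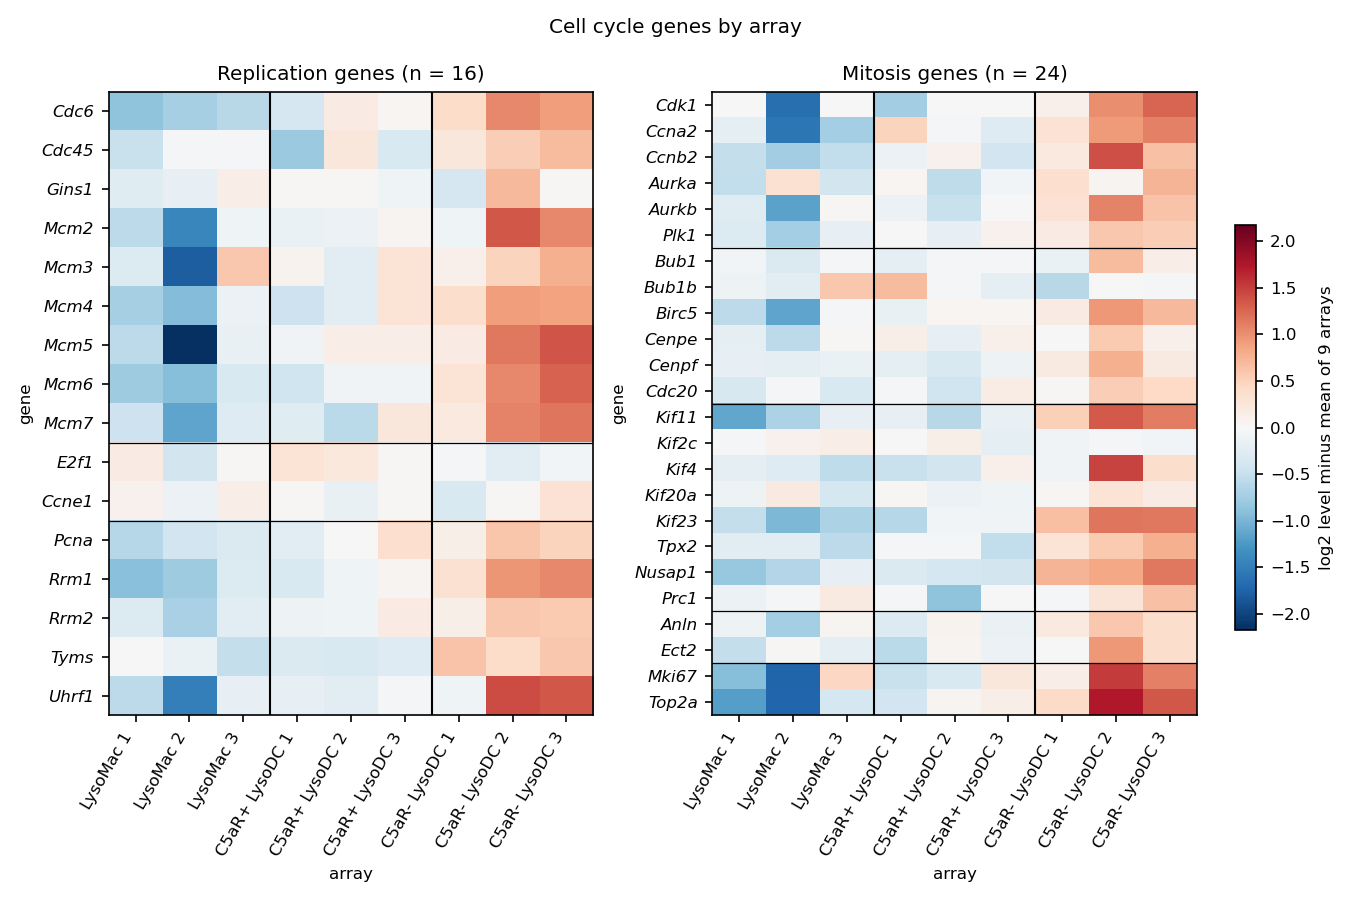
Log2 level of the 40 genes (rows, replication genes on the left and mitosis genes on the right) in the 9 arrays (columns), as the difference from each gene's mean over the 9 arrays. C5aR- LysoDC array 2 is the highest of the 9 in 23 rows and array 3 in 13, LysoMac array 2 is the lowest in 21, and the highest value of E2f1, Tyms, Bub1b and Kif2c lies in another array.

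Among the licensing and initiation genes, which open replication origins and load the helicase, 2 of 9 rose in C5aR- LysoDC over LysoMac, and the median difference of the 9 was 1.45. Cdc6, which loads the MCM helicase onto origins, read 3.57, 3.72 and 3.85 (LysoMac), 4.08, 4.63 and 4.48 (C5aR+ LysoDC) and 4.85, 5.48 and 5.35 (C5aR- LysoDC). The populations did not overlap, and C5aR+ LysoDC lay between the others. Cdc6 was 2.86-fold higher in C5aR- LysoDC than in LysoMac (difference 1.51 ± 0.21 SE, adjusted p = 0.0109), while C5aR+ LysoDC differed from LysoMac by 0.68 ± 0.21 (adjusted p = 0.687) and from C5aR- LysoDC by -0.83 ± 0.21 (adjusted p = 0.320). Its LysoMac mean of 3.71 was only just above the highest array median of 3.65, so the fold was measured from a dim signal. Mcm6, a subunit of the helicase, read 4.80, 4.65 and 5.23 (LysoMac), 5.13, 5.49 and 5.49 (C5aR+ LysoDC) and 5.88, 6.62 and 6.86 (C5aR- LysoDC). All C5aR- LysoDC arrays were above all others, and the remaining populations overlapped. The difference of C5aR- LysoDC from LysoMac was 1.56 ± 0.27, or 2.95-fold (adjusted p = 0.0266), against 0.47 ± 0.27 for C5aR+ LysoDC from LysoMac (adjusted p = 0.809).

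The remaining helicase subunits did not pass the test. Mcm2 read 5.72, 4.87 and 6.19 (LysoMac), 6.14, 6.16 and 6.35 (C5aR+ LysoDC) and 6.19, 7.64 and 7.33 (C5aR- LysoDC). C5aR- LysoDC array 1 lay level with LysoMac array 3, so these populations overlapped, and the difference was 1.46 ± 0.41 (adjusted p = 0.152). Mcm3 read 6.26, 4.75 and 7.13 (LysoMac), 6.63, 6.30 and 6.85 (C5aR+ LysoDC) and 6.67, 7.04 and 7.33 (C5aR- LysoDC), with LysoMac array 2 far below the other 8 arrays (difference of C5aR- LysoDC from LysoMac 0.96 ± 0.50, adjusted p = 0.450). Mcm5 read 6.08, 4.48 and 6.49 (LysoMac), 6.57, 6.80 and 6.79 (C5aR+ LysoDC) and 6.84, 7.80 and 8.01 (C5aR- LysoDC). Its LysoMac array 2 was likewise the lowest, no populations overlapped, and the difference of C5aR- LysoDC from LysoMac was 1.86 ± 0.49 (adjusted p = 0.126). Differences for Mcm4 and Mcm7 were 1.33 (adjusted p = 0.0518) and 1.45 (adjusted p = 0.0780), again with no overlap between C5aR- LysoDC and LysoMac. Cdc45, part of the active helicase, differed by 0.68 and Gins1, another part of it, by 0.22, the smallest difference of this group.

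Neither measured gene of S phase entry passed the test. E2f1, a transcription factor that switches on replication genes, read 5.51, 4.93 and 5.36 (LysoMac), 5.63, 5.56 and 5.36 (C5aR+ LysoDC) and 5.29, 5.09 and 5.28 (C5aR- LysoDC). Its C5aR- LysoDC arrays lay within the range of LysoMac (difference -0.05 ± 0.18, adjusted p = 0.926) and below every C5aR+ LysoDC array. Ccne1, the cyclin E that drives entry to S phase with Cdk2, read 5.38, 5.16 and 5.44 (LysoMac), 5.31, 5.14 and 5.31 (C5aR+ LysoDC) and 4.96, 5.31 and 5.61 (C5aR- LysoDC), and all 3 populations overlapped (difference of C5aR- LysoDC from LysoMac -0.03 ± 0.18, adjusted p = 0.952).

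Of the 5 genes for DNA synthesis and nucleotide supply, Rrm1 rose, and every one was without overlap between C5aR- LysoDC and LysoMac. Rrm1, the large subunit of ribonucleotide reductase, which makes deoxynucleotides, read 4.15, 4.28 and 4.76 (LysoMac), 4.73, 4.96 and 5.12 (C5aR+ LysoDC) and 5.39, 6.02 and 6.10 (C5aR- LysoDC). C5aR- LysoDC was above all other arrays, by 1.44 ± 0.24 over LysoMac, or 2.71-fold (adjusted p = 0.0224), and C5aR+ LysoDC array 1 fell just under the highest LysoMac array. Pcna, the sliding clamp of the DNA polymerases, read 9.19, 9.38 and 9.49 (LysoMac), 9.58, 9.81 and 10.17 (C5aR+ LysoDC) and 9.93, 10.42 and 10.29 (C5aR- LysoDC), so both dendritic cell populations lay above LysoMac, with differences of 0.86 ± 0.20 (adjusted p = 0.0802) for C5aR- LysoDC and 0.50 ± 0.20 (adjusted p = 0.797) for C5aR+ LysoDC. Uhrf1, which carries DNA methylation through replication, read 5.08, 4.17 and 5.47 (LysoMac), 5.48, 5.41 and 5.61 (C5aR+ LysoDC) and 5.56, 7.07 and 7.0 (C5aR- LysoDC). C5aR- LysoDC arrays 2 and 3 stood apart from the other 7, and the difference from LysoMac was 1.64 ± 0.43 (adjusted p = 0.129). Tyms, which makes thymidylate, differed by 0.76 (adjusted p = 0.0559) and Rrm2, the small subunit of ribonucleotide reductase, by 0.84 (adjusted p = 0.0713).

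**Figure D2:**
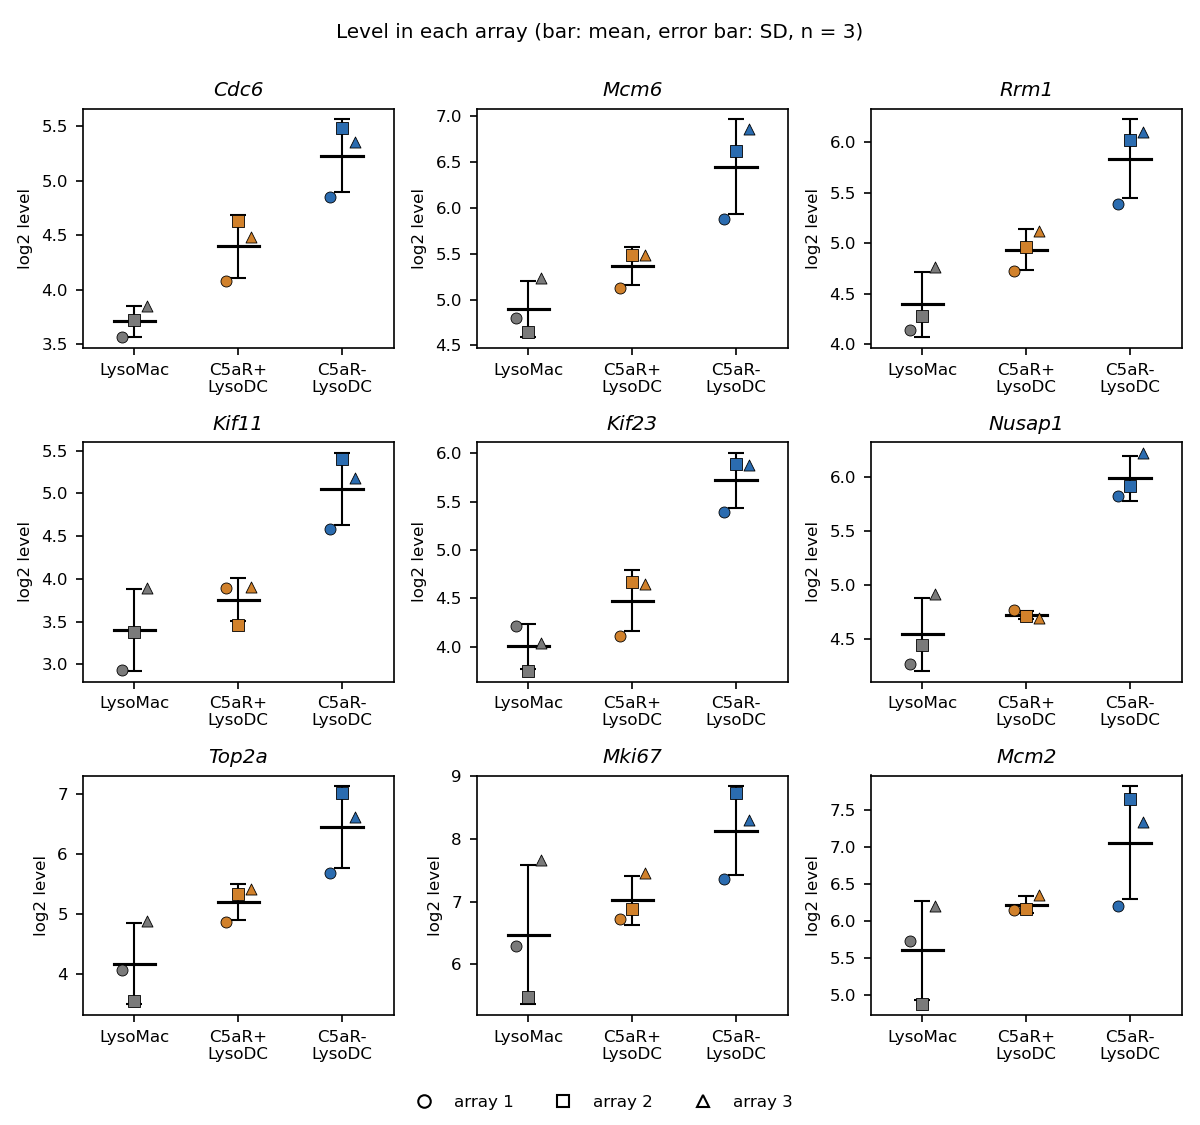
Log2 level by array (points) with the mean (bar) and SD of 3 arrays for the 7 genes that rose in C5aR- LysoDC over LysoMac and for Mki67 and Mcm2. In the 7 genes every C5aR- LysoDC array lies above every LysoMac array, while in Mki67 and Mcm2 LysoMac array 3 reaches the lowest C5aR- LysoDC array.

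None of the 6 measured cyclins and mitotic kinases, which start and steer mitosis, passed the test in C5aR- LysoDC against LysoMac. Their differences ran from 0.59 (Aurka) to 1.61 (Ccna2), and 5 of the 6 did not overlap. Ccnb2, the cyclin B2 partner of Cdk1, read 5.63, 5.40 and 5.62 (LysoMac), 6.02, 6.25 and 5.74 (C5aR+ LysoDC) and 6.36, 7.56 and 6.79 (C5aR- LysoDC). The 3 populations were in order without overlap, and C5aR- LysoDC differed from LysoMac by 1.35 ± 0.28 (adjusted p = 0.0546). Aurkb, the kinase of the chromosomal passenger complex, read 5.34, 4.43 and 5.63 (LysoMac), 5.47, 5.12 and 5.60 (C5aR+ LysoDC) and 5.91, 6.67 and 6.22 (C5aR- LysoDC), with C5aR- LysoDC above the other arrays (difference from LysoMac 1.13 ± 0.32, adjusted p = 0.153).

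The checkpoint, kinetochore and passenger genes had the smallest median difference of the mitosis roles, 0.51 over 6 genes, and 0 of the 6 passed. Bub1b, the checkpoint kinase BubR1, read 5.96, 5.83 and 6.66 (LysoMac), 6.76, 6.03 and 5.88 (C5aR+ LysoDC) and 5.47, 6.08 and 6.03 (C5aR- LysoDC). Its populations overlapped, and its difference of -0.29 ± 0.30 between C5aR- LysoDC and LysoMac (adjusted p = 0.702) was the lowest of the 40. Cdc20, which activates the anaphase-promoting complex, read 5.25, 5.58 and 5.26 (LysoMac), 5.58, 5.16 and 5.77 (C5aR+ LysoDC) and 5.63, 6.13 and 6.04 (C5aR- LysoDC), with C5aR- LysoDC just above LysoMac (difference 0.57 ± 0.20, adjusted p = 0.275). Birc5, the passenger subunit survivin, differed by 1.19 (adjusted p = 0.0944). The mean level of Birc5 in LysoMac was below every array median, as were those of Cenpf, Kif4 and Kif20a, so these differences were measured from dim signals.

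The spindle and midzone genes held 3 of the 4 mitosis genes that rose. Kif23, the midzone motor of the centralspindlin complex needed for cytokinesis, read 4.22, 3.75 and 4.04 (LysoMac), 4.11, 4.67 and 4.65 (C5aR+ LysoDC) and 5.39, 5.89 and 5.87 (C5aR- LysoDC). All C5aR- LysoDC arrays were above all others, by 1.71 ± 0.22 over LysoMac, or 3.28-fold (adjusted p = 0.00806), and C5aR+ LysoDC lay -1.24 ± 0.22 from C5aR- LysoDC (adjusted p = 0.10). Nusap1, which binds and stabilises spindle microtubules, read 4.26, 4.44 and 4.91 (LysoMac), 4.77, 4.71 and 4.69 (C5aR+ LysoDC) and 5.83, 5.92 and 6.23 (C5aR- LysoDC). The C5aR- LysoDC arrays were again the highest, by 1.45 ± 0.19 over LysoMac, or 2.74-fold (adjusted p = 0.00881). C5aR+ LysoDC fell inside the LysoMac range, and its difference from C5aR- LysoDC, -1.27 ± 0.19, had the smallest adjusted p of the 40 in that comparison (0.0593). Kif23 and Nusap1 passed against LysoMac under each of the 19 alternative analyses.

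Kif11, the motor that pushes the spindle poles apart, read 2.94, 3.38 and 3.89 (LysoMac), 3.89, 3.47 and 3.91 (C5aR+ LysoDC) and 4.58, 5.40 and 5.18 (C5aR- LysoDC). C5aR- LysoDC was above all other arrays and rose by 1.65 ± 0.28 over LysoMac (adjusted p = 0.0278), where the LysoMac mean of 3.40 lay among the array medians, so no fold is given. Tpx2, which activates Aurora A on the spindle, read 5.54, 5.56 and 5.22 (LysoMac), 5.77, 5.77 and 5.25 (C5aR+ LysoDC) and 6.09, 6.37 and 6.57 (C5aR- LysoDC), with C5aR- LysoDC highest without overlap (difference from LysoMac 0.90 ± 0.20, adjusted p = 0.0689). Kif2c, a kinesin that takes microtubules apart at their ends, differed by -0.13 between C5aR- LysoDC and LysoMac, and Prc1, which bundles midzone microtubules, by 0.28. The differences of the 8 genes of this role therefore ran from -0.13 to 1.71 within the same arrays.

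The cytokinesis genes gave differences of a middle size. Anln, the actin-binding anillin of the contractile ring, read 3.57, 2.95 and 3.74 (LysoMac), 3.38, 3.76 and 3.55 (C5aR+ LysoDC) and 3.89, 4.26 and 4.07 (C5aR- LysoDC), and C5aR- LysoDC lay above the other arrays (difference from LysoMac 0.66 ± 0.22, adjusted p = 0.243). Ect2, which activates RhoA at the cleavage plane, read 3.49, 4.03 and 3.82 (LysoMac), 3.43, 4.07 and 3.89 (C5aR+ LysoDC) and 4.02, 4.95 and 4.40 (C5aR- LysoDC). Its C5aR- LysoDC array 1 was just below LysoMac array 2, and the difference was 0.68 ± 0.27 (adjusted p = 0.326).

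Top2a, the topoisomerase that untangles sister chromosomes, had the largest difference of the 40 genes. It read 4.07, 3.55 and 4.89 (LysoMac), 4.86, 5.33 and 5.41 (C5aR+ LysoDC) and 5.68, 7.01 and 6.62 (C5aR- LysoDC). C5aR- LysoDC was above all other arrays, by 2.27 ± 0.40 over LysoMac, or 4.81-fold (adjusted p = 0.0309). C5aR+ LysoDC differed from LysoMac by 1.03 ± 0.40 (adjusted p = 0.797), with its array 1 just under LysoMac array 3. Mki67, which coats mitotic chromosomes and is the standard marker of cycling cells, read 6.29, 5.47 and 7.66 (LysoMac), 6.72, 6.89 and 7.46 (C5aR+ LysoDC) and 7.36, 8.74 and 8.30 (C5aR- LysoDC). LysoMac array 3 was above the lowest C5aR- LysoDC array and above every C5aR+ LysoDC array, and the differences from LysoMac were 1.66 ± 0.54 (C5aR- LysoDC, adjusted p = 0.226) and 0.55 ± 0.54 (C5aR+ LysoDC, adjusted p = 0.840).

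**Figure D3:**
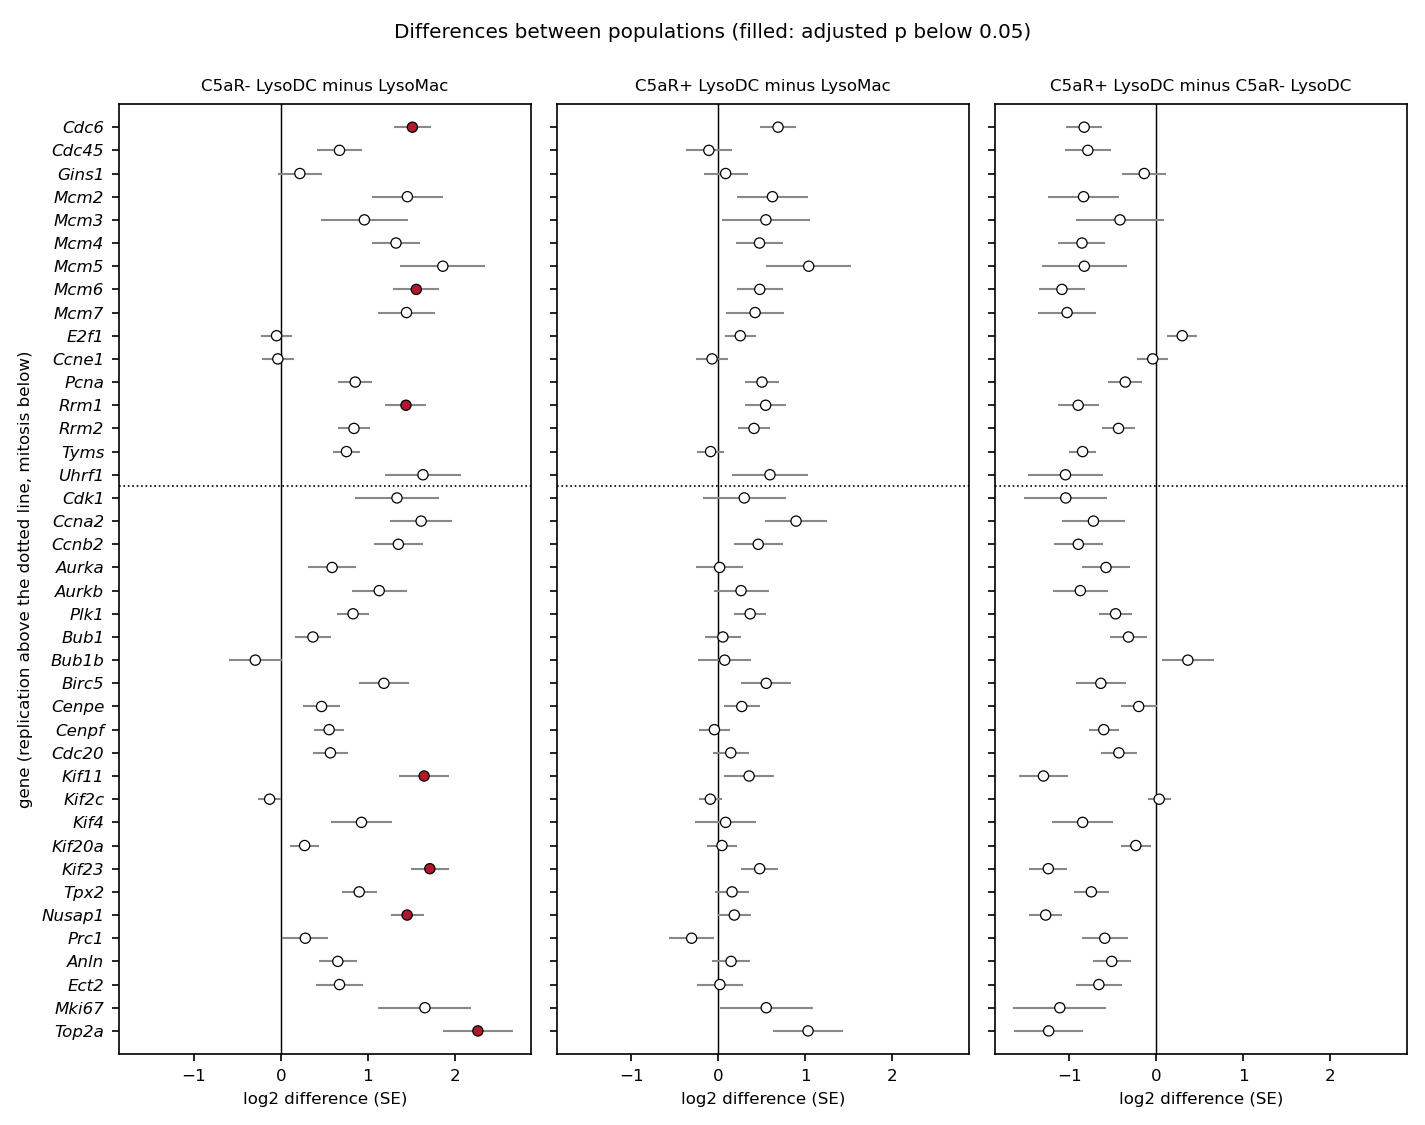
Difference in mean log2 level (point) with its SE (line) for the 40 genes in each of the 3 comparisons, with filled points at an adjusted p below 0.05. The 7 filled points are all in C5aR- LysoDC minus LysoMac, and the C5aR+ LysoDC minus LysoMac differences run from -0.31 (Prc1) to 1.04 (Mcm5).

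The arrays of a population did not hold the same level of the 40 genes as a group. The median over the 40 genes of each array's deviation from the 9-array mean was -0.33, -0.70 and -0.17 in LysoMac arrays 1 to 3, -0.17, -0.10 and 0.0030 in C5aR+ LysoDC, and 0.18, 0.80 and 0.66 in C5aR- LysoDC. C5aR- LysoDC array 1 was the lowest of its population in 36 of the 40 genes, and LysoMac array 2 the lowest of its own in 24 of the 40. LysoMac array 3 was the highest of its population in 27 of the 40. The median SD over the 40 genes was 0.304 for LysoMac, 0.249 for C5aR+ LysoDC and 0.337 for C5aR- LysoDC. Array 2 of LysoMac is also the one with the narrowest interquartile range. After quantile normalization, which gives all arrays 1 distribution, 8 genes rose in C5aR- LysoDC over LysoMac, with medians of 1.03 over replication and 0.77 over mitosis.

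Other genes of the same pathways, listed by function, had median differences above 0 and below that of the 40 genes. Of 39 further replication genes 3 rose in C5aR- LysoDC over LysoMac and 0 fell, with a median of 0.54: Lig1, which seals Okazaki fragments (1.91 ± 0.27, adjusted p = 0.0114), Asf1b, a histone chaperone (1.80 ± 0.28, adjusted p = 0.0174), and Prim1, a primase subunit (1.34 ± 0.25, adjusted p = 0.0393). Of 60 further mitosis genes 7 rose and 0 fell, with a median of 0.65. They included Esco2, which acetylates cohesin (1.45 ± 0.14, adjusted p = 0.00265), the spindle motor Kif15 (1.40 ± 0.20, adjusted p = 0.0118), the kinetochore subunit Ndc80 (1.72 ± 0.29, adjusted p = 0.0266) and the chromosome motor Kif22 (1.00 ± 0.17, adjusted p = 0.029). Ndc80 read between 1.68 and 2.32 in LysoMac and between 3.09 and 4.30 in C5aR- LysoDC, so its LysoMac arrays were all below the array medians, as were those of Esco2. The LysoMac mean of Prim1 (3.44) lay among the medians and that of Kif15 (3.72) just above them. These differences were therefore measured from dim signals.

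Of 17 genes of cell cycle entry and transcription 1 rose: Myb, a transcription factor of dividing progenitors, read 3.96, 4.16 and 3.95 (LysoMac), 4.10, 4.53 and 4.39 (C5aR+ LysoDC) and 5.19, 5.40 and 5.10 (C5aR- LysoDC), with no overlap between C5aR- LysoDC and the others (difference of C5aR- LysoDC from LysoMac 1.20 ± 0.16, adjusted p = 0.00942). The median of these 17 was 0.45. Of 20 inhibitors and quiescence genes 0 passed in limma, with 3 higher and 1 lower at an unadjusted p under 0.05 and a median of 0.34. The brightest were Cdkn1a, the Cdk inhibitor p21, with a difference of 1.04 ± 0.57 (adjusted p = 0.471), and Ccng1, a p53 target, with 0.43 ± 0.41 (adjusted p = 0.671). In the other comparisons 0 genes of these 4 lists passed in limma. At an unadjusted p under 0.05, C5aR+ LysoDC was above LysoMac in 2 of 39 further replication, 4 of 60 further mitosis, 0 of 17 entry and 0 of 20 inhibitor genes, where 3.54% of all clusters were. It was below C5aR- LysoDC in 13, 30, 5 and 1 genes of the same lists, where 3.1% of all clusters were.

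**Figure D4:**
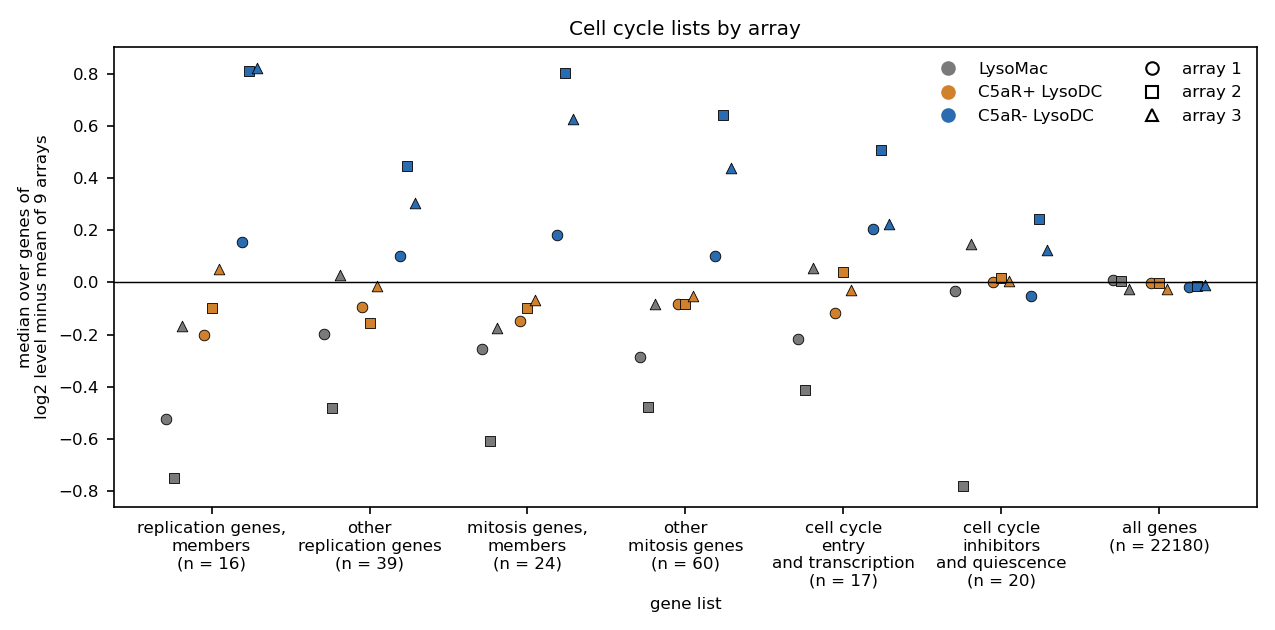
Median over the genes of a list of the log2 level minus the 9-array mean (vertical axis), by array, for the replication and mitosis genes described here, the 4 further lists and all 22180 genes. LysoMac array 2 is lowest in the 6 cell cycle lists and C5aR- LysoDC arrays 2 and 3 are highest in all of them except the inhibitors, where LysoMac array 3 lies above C5aR- LysoDC array 3. The medians over all genes lie near 0.

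Markers of 5 other cell types of the tissue were read beside these levels, in C5aR- LysoDC against LysoMac, where 1.13% of all clusters rose and 7.26% were higher and 5.89% lower at an unadjusted p under 0.05. Of 6 germinal centre B cell markers 1 rose, Gcsam (2.71 ± 0.51, adjusted p = 0.0383), 2 were higher and 1 lower at an unadjusted p under 0.05, and the median difference was 0.27. The summed linear signal of the 6 was 176, 128 and 162 (LysoMac), 138, 140 and 176 (C5aR+ LysoDC) and 223, 249 and 171 (C5aR- LysoDC). S1pr2, the brightest of the 6 in LysoMac and picked out after its values were seen, read 6.93, 6.12 and 6.55 there. It read 6.47, 6.11 and 6.45 in C5aR+ LysoDC and 5.67, 6.01 and 6.21 in C5aR- LysoDC (difference from LysoMac -0.57 ± 0.23, adjusted p = 0.340). Of the 6 differences 4 were above 0 and 2 below. Gcsam read 6.68, 6.11 and 4.50 in C5aR- LysoDC, so both genes weigh heavily in the sums. The order of the arrays in the sums therefore rests on few genes, and its relation to the cell cycle genes was not tested. Of the other markers that did not pass, Bcl6 and Rgs13 were likewise picked out after their values were seen. Bcl6, the germinal centre transcription factor, was without overlap between C5aR- LysoDC (4.84, 5.72 and 5.13) and LysoMac (3.65, 3.71 and 3.81, difference 1.5 ± 0.37, adjusted p = 0.0979). Rgs13, a signalling regulator of germinal centre B cells, read between 2.06 and 2.49 in all 9 arrays.

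Of 9 B cell markers 2 rose, Cr2 (1.64 ± 0.16, adjusted p = 0.0029) and Blk (1.82 ± 0.23, adjusted p = 0.00841), 5 were higher and 0 lower at an unadjusted p under 0.05, and the median difference was 0.69. The median deviation of the 9 from the 9-array mean ran from -0.62 to -0.46 (LysoMac), -0.01 to 0.30 (C5aR+ LysoDC) and 0.12 to 0.40 (C5aR- LysoDC), while their summed linear signals overlapped (221 to 364, 315 to 406 and 289 to 341). Of the 9 differences 7 were above 0 and 2 below. The 2 were Cd79b (-0.71 ± 0.35, adjusted p = 0.428) and Cd22 (-0.45 ± 0.22, adjusted p = 0.428). Cd79b was the brightest of the 9 in every array and so weighs most in the sums. Of 7 plasma cell markers 1 rose, Jchain (3.10 ± 0.37, adjusted p = 0.00596), 2 were higher and 0 lower at an unadjusted p under 0.05, and the median difference was 0.19, with sums from 369 to 552, 529 to 856 and 533 to 755 in the same order of populations. Of these 7 differences 5 were above 0 and 2 below, the lowest being Sdc1 (-0.83 ± 0.44, adjusted p = 0.455). Xbp1, the brightest of the 7 in every array, differed by 0.28 ± 0.19 (adjusted p = 0.559). Of 7 T cell markers 0 passed in limma (0 at an unadjusted p under 0.05), with a median difference of -0.17 and sums from 110 to 203, 98.6 to 142 and 105 to 121.

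Of 10 epithelial and crypt markers 2 rose, Epcam (1.54 ± 0.21, adjusted p = 0.0112) and Cdh1 (1.75 ± 0.28, adjusted p = 0.0185), 3 were higher and 2 lower at an unadjusted p under 0.05, and the median difference was -0.13, with sums from 117 to 169, 128 to 130 and 179 to 272. Cdh1 was also lower in C5aR+ than in C5aR- LysoDC (-2.11 ± 0.28, adjusted p = 0.0368). The LysoMac means of Gcsam (3.05), Cr2 (3.10) and Epcam (3.21) were below every array median, and those of Blk (3.61) and Jchain (3.56) lay among the medians, so these differences were measured from dim signals. Arrays give no true zero, so none of these markers can be called absent. The part of other cell types in the cell cycle differences was not tested.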

How the data were processed

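The 9 arrays were 1-colour Affymetrix whole-transcript arrays, hybridised after pico-scale amplification per the labels' protocols. The authors deposited log2 expression values for 33793 transcript clusters, made with RMA and Affymetrix Power Tools per the submitters' processing notes. No version, background setting or genome build was given in the sources used here. Values ran from 0.719 to 13.2 and were used as deposited. By the platform annotation 23521 clusters had 1 gene symbol, 1814 several and 8458 none, and only the first kind was named. The number of arrays limits the precision.

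Group means over all 9 arrays were fitted with limma 3.58.1 (R 4.3.3, lmFit and eBayes, 6 residual degrees of freedom), with Benjamini-Hochberg adjustment over all 33793 clusters and a threshold of 0.05. Errors are standard errors of that fit. Tables were made with Python 3.11.15 and pandas 2.3.3. On 10 simulated sets for C5aR- LysoDC against LysoMac, with 200 of 33793 clusters changed, 38.4% of 2-fold and 82.6% of 4-fold changes were recovered and 5.10% of calls were false. The 19 alternatives covered scaling, dim clusters, variance models, the arrays fitted, the choice of cluster, a replicate block and each array left out.

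The genes and lists were chosen with earlier results of these data known. Values by array are given for genes that passed, the 2 brightest of each role, Mki67, Top2a and Mcm2. Of a pathway list, up to 4 genes that passed, by adjusted p, or else the 2 brightest are named, and of another cell type up to 3 that passed. Further cell type markers, that went the other way or were the brightest of a list, were named after their values were seen. Replicate numbers in the titles were checked for pairing: in C5aR+ LysoDC against LysoMac, same-numbered arrays deviated together in every pair (r = 0.16, 0.26 and 0.41), which is a pairing seen in the data and not stated by the labels, and the block gave 0 genes there as well.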

Additional observations from a re-analysis of the deposited data

How the results depend on the processing

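Under the alternatives run, no difference of a called gene reversed. For C5aR- LysoDC against LysoMac, where 7 genes passed, 11 passed after cyclic loess, 13 of 37 with dim clusters left out, 28 with array weights, 3 with 1 weight per population and 3 with those 2 populations alone. Leaving out 1 array gave 2 to 12, and the replication median then ran from 0.98 to 1.53. For C5aR+ LysoDC against LysoMac, where 0 passed, array weights gave 1 (Cdc6). For C5aR+ against C5aR- LysoDC, where 0 passed, cyclic loess gave 1, dim clusters left out 1 (Nusap1), array weights 3, 1 weight per population 3 (Kif23, Nusap1 and Tyms), and leaving out 1 array 0 to 1, the 1 being Nusap1 without LysoMac array 3. The F test, which called 3, called 6 after quantile normalization, 6 after cyclic loess, 6 with dim clusters left out, 27 with array weights and 0 to 7 when an array was left out. With the replicate number as a block, 10 genes passed in C5aR- LysoDC against LysoMac and 7 in the F test. Outside C5aR+ LysoDC against LysoMac, same-numbered arrays did not deviate together in every pair, and a partial pairing cannot be told from none. For C5aR- LysoDC against LysoMac r ran from -0.11 to 0.17, with 2 of 6 arrays best correlated with their own number. Between the dendritic cell populations r ran from -0.03 to 0.23, with 4 of 6. Array weights called 2991 clusters higher and 3691 lower in C5aR- LysoDC over LysoMac, against 381 and 137 without them, and quantile normalization 436 and 274. With dim clusters left out fewer clusters were tested, 16896 in place of 33793. The cause of the changed counts was not tested for any setting. Of the genes that rose, Kif23 and Nusap1 passed in 19 of 19 alternatives, Cdc6 in 17, Mcm6, Rrm1 and Kif11 in 12 each and Top2a in 11. Of 2271 values of single genes under an alternative, 55 passed the threshold newly and 31 no longer passed. Another 8, of genes that had not passed, changed sign by at least the standard error of the main fit. The remaining 2177 kept their side of the threshold, and any change of sign among them was smaller than that error. Dim signals limit Kif4, whose mean was below every array median in all 3 populations.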

Other observations

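Ccnd2, a D-type cyclin that links growth signals to cell cycle entry and was picked out after its values were seen, read 7.60, 8.22 and 8.60 (LysoMac), 8.01, 7.95 and 8.12 (C5aR+ LysoDC) and 8.82, 9.65 and 9.52 (C5aR- LysoDC). Every C5aR- LysoDC array was above all others, with differences of 1.20 ± 0.28 from LysoMac (adjusted p = 0.088) and of -1.31 ± 0.28 for C5aR+ against C5aR- LysoDC (adjusted p = 0.205), neither past the threshold. C5aR+ LysoDC differed from LysoMac by -0.11 ± 0.28, where the further lists had medians above 0.

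Some deposited values are equal to 5 decimals between arrays. Of the 40 genes, 16 (40.0%) held 1 value in 2 or more arrays and 4 (10.0%) in 3 or more, against 50.8% and 27.9% of all genes. Cdk1 read 5.42 in 4 arrays, LysoMac arrays 1 and 3 and C5aR+ LysoDC arrays 2 and 3, so the spread within those populations is set by the 1 array that differs.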
